A study of Homo sapiens with 12 samples.

Results

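The genes described here encode the apical polarity complexes and the tight junction of epithelial cells. They were chosen by name: 35 genes were listed, and each was followed through probe sets whose platform annotation gives it as the only symbol. Of the 35, 33 were measured, through 57 of 22215 probe sets and among 11963 genes on the array, and CGN (cingulin) and F11R (junctional adhesion molecule A) were not analysed here. Where a gene had several probe sets, the brightest over all 12 arrays stands for it.

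The cells were HMT-3522 S1, a single established line of non-neoplastic human mammary epithelium that can form acini, spheres of a single cell layer around a lumen, in laminin-rich gel. All cultures were at passage 55 to 60, were plated at 35000 cells per cm2 on a Matrigel coat in medium with 5% Matrigel, and spent 8 days with epidermal growth factor and a final 48 h without it. The 4 vehicle cultures are labelled apically polarized. The 4 AGA cultures had 10 µM 18-alpha-glycyrrhetinic acid, a blocker of gap junction channels, and the 4 Aza cultures had 10 µM 5-aza-2'-deoxycytidine, which inhibits the enzymes that methylate DNA. Each drug was present for 10 days from plating, renewed every 2 days, and both groups are labelled non-polarized. The design calls the replicates biological and numbers them 1 to 4 in each group; nothing else tells whether they were grown apart, so p-values measure only the spread between these samples, which may be technical. The question of the comparison was which transcripts differ between polarized and non-polarized acini, and here it is asked of the genes that build polarity itself.

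Epithelial polarity is set by 3 groups of proteins. The Par complex (PARD3, PARD6 and atypical protein kinase C) and the Crumbs complex (Crumbs, PALS1, PATJ and the LIN7 adaptors) mark the apical side, and the Scribble module (Scribble, LGL and DLG proteins) marks the basolateral side, and each side excludes the proteins of the other. The tight junction lies at the border between the domains: claudins and occludin cross the membrane and seal the gap between cells, and plaque proteins such as ZO-1 tie them to actin. In the breast these proteins keep milk components and apical receptors on the lumen side, and loss of apical polarity is a known early change in mammary tumours. The arrays measured transcript levels, not the place of the proteins in the cell.

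Because Aza inhibits the enzymes that methylate DNA at CG dinucleotides, the promoter sequences of 5 genes are printed with each CG in capitals. The sequences come from genes described at length below, in order of the CG count of the window printed. They are RefSeq windows of GRCh38.p14, 5′ to 3′ on the gene's strand, from 250 bases before to 50 bases after a transcript start. The LLGL1 window (chr17:18225385-18225684, plus strand) held 56 CG, 1.06 times the number its base composition gives by chance. For TJP1 (chr15:29969000-29969299, minus strand) the count was 34 and the ratio 0.937; its other windows held 3 to 36. TJP3 has a pair of windows: the one printed (chr19:3708134-3708433, plus strand) held 12 with a ratio of 0.413, and the other (chr19:3721487-3721786) held 24 with 0.67 and an E-box of the kind described next. CLDN4 (chr7:73830746-73831045, plus strand) held 5 with 0.192, and CRB1 (chr1:197268002-197268301, plus strand) 2 with 0.144.
LLGL1: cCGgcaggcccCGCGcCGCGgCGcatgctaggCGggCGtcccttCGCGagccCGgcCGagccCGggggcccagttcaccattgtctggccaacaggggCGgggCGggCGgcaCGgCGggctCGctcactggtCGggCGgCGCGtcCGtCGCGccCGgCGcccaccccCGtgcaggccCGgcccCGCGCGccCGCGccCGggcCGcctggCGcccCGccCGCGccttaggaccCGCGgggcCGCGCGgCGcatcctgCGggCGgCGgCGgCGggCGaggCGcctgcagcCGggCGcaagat
TJP1: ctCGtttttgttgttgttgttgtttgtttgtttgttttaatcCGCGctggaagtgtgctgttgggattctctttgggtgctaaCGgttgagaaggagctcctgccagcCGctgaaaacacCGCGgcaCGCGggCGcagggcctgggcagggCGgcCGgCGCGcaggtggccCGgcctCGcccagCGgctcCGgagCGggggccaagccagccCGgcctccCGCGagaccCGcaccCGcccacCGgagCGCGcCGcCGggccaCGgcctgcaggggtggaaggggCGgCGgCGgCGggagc
TJP3: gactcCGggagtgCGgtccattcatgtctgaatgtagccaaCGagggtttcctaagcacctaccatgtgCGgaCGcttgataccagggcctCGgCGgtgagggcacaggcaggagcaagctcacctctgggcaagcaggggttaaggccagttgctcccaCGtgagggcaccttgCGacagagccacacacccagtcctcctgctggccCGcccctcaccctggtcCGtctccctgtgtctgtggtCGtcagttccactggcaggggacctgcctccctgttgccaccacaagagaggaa
CLDN4: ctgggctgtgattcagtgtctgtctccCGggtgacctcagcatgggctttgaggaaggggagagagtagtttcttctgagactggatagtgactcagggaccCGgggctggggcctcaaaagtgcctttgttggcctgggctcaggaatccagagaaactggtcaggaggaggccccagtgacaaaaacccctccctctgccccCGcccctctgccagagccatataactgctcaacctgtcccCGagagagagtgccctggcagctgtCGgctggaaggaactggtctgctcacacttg
CRB1: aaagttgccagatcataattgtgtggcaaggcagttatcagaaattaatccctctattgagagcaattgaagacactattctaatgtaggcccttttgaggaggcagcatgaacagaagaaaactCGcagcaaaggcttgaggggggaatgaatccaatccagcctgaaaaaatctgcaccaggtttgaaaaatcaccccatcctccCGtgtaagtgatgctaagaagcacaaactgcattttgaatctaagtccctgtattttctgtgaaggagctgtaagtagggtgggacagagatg

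A further window is shown for the E-box CACCTG, searched on both strands (so also as CAGGTG), the hexamer bound by SNAI and ZEB repressors of epithelial genes. CLDN7, which encodes a claudin of many epithelia, carried 5 of them in 1 of its windows, chr17:7262429-7262728 (minus strand), in capitals here, and none in the other.
CLDN7: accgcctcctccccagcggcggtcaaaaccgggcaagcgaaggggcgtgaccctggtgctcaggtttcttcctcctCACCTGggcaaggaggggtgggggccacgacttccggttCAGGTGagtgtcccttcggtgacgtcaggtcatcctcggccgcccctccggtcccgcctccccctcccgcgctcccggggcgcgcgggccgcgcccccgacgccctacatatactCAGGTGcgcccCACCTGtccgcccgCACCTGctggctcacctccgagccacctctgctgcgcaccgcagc

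Promoter windows were given for 26 of the 33 measured genes, 52 windows in all, 9 of them for DLG2. In the window richest in CG per gene, the median count was 31.5 for 10 well-expressed genes, 30 for 10 dim ones and 20.5 for 6 near the floor (these classes are defined next), beside 26 for 9563 genes of the array. An E-box was found in 14 of the 52 windows (26.9%), against 18.9% of 14058 windows of array genes and 20.6% of all 35116 windows of the same length. By class, the E-box was in 5 of 20 windows of well-expressed genes, 9 of 17 of dim ones and 0 of 15 near the floor. The near-floor windows include the 9 of DLG2. Whether the E-box goes with the level of a gene was not tested. A match is only a match of letters, and neither methylation nor binding was measured.

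All levels are log2 of the deposited intensity after quantile normalization, with values below an intensity of 1 set to 1, so the lowest possible level is 0. Probe sets differ in how strongly they bind, so levels are compared between samples of 1 probe set and not between genes. A gene was called well expressed when its mean over 12 arrays reached 4.76, the median of all probe sets, near the floor when it lay below 2.31, their 25th percentile, and dim between them. By this measure 13 genes were well expressed, 11 were dim and 9 were near the floor. By group, 3 of 5 Par genes, 3 of 6 Crumbs genes, 3 of 7 Scribble genes, 1 of 2 polarity kinases and 3 of 5 plaque genes were well expressed, and 0 of 8 transmembrane genes were, beside 6634 of 11963 genes of the array. These counts say where probe sets lie on the array, not which of the proteins' transcripts is more abundant. PATJ, at 4.71, lay just below the median, and SYMPK, at 5.00, was the well-expressed gene nearest to it. At the lower limit CLDN3 (2.45) was just dim and CLDN5 (2.25) just near the floor.

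**Figure D1:**
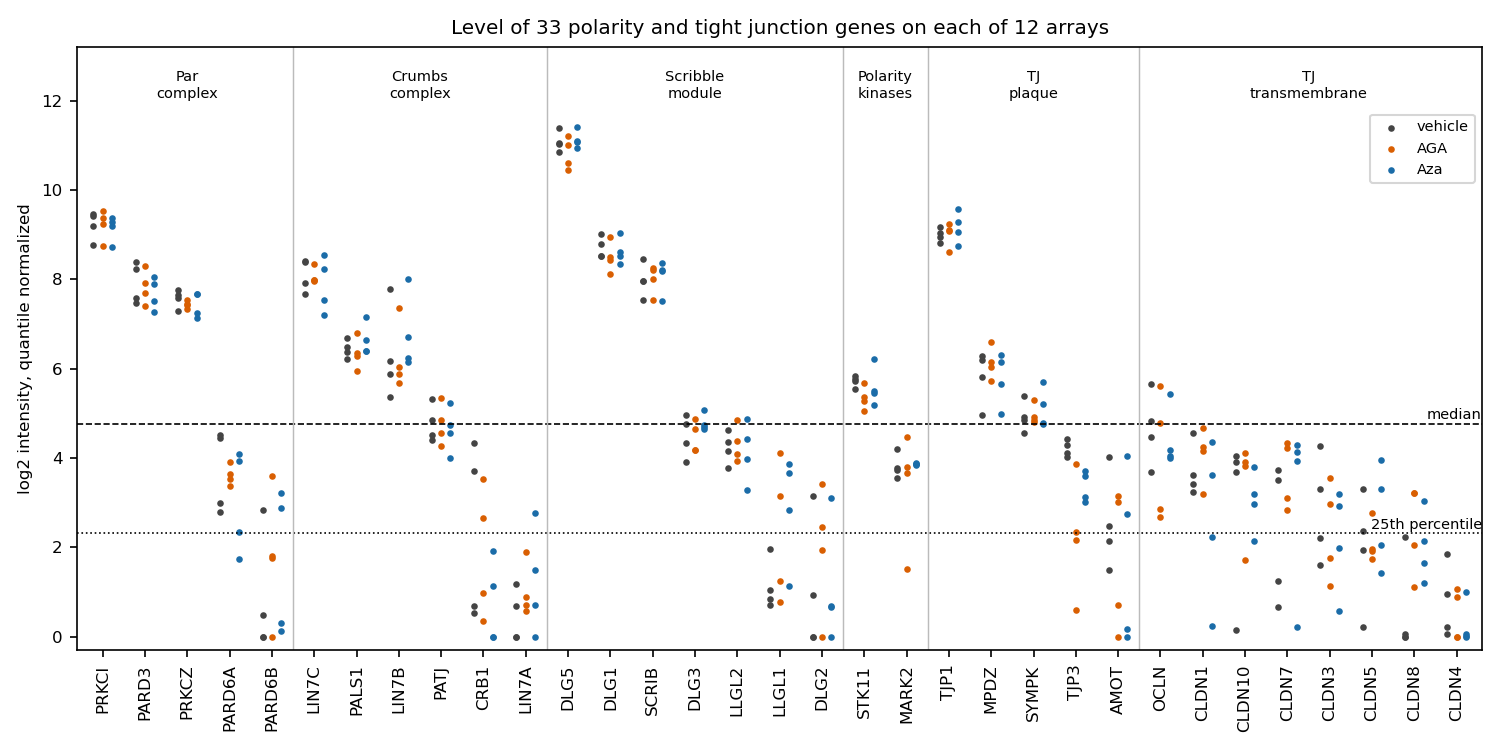
Level of each of the 33 measured genes on each of the 12 arrays (vertical axis, log2 intensity after quantile normalization), ordered by complex and, within it, by mean level; grey points are vehicle, orange AGA and blue Aza. The dashed line is the median of all probe sets (4.76) and the dotted line their 25th percentile (2.31). None of the 8 transmembrane genes shown has a mean above the dashed line.

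The line's epithelial identity was checked beside these genes. Of 8 epithelial markers measured, 6 were well expressed, among them CDH1 (7.84), KRT5 (12.4) and KRT8 (7.40). EPCAM was near the floor (1.47) and KRT19 was at 0 on all 12 arrays. Fibroblast markers included COL1A1 at 7.15 and DCN at 5.01, with LUM at 0.20, and their summed deposited intensity ran from 191 to 264 in vehicle, 112 to 212 in AGA and 228 to 301 in Aza; of 4 endothelial markers the receptor gene KDR was well expressed (7.57) and PECAM1 (2.05), VWF (1.12) and CDH5 (0.759) were near the floor, and 0 of 4 leukocyte markers were well expressed. Their part in the results was not tested. The arrays numbered 4 stood apart from the others: they scored 69.3 to 84.5 on the first principal component (16.4% of the variance), and the other 9 scored -12.1 or less. Results are therefore also given without them.

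No transcript of the polarity complexes or the tight junction passed the test in the non-polarized cultures. At an adjusted p under 0.05 (limma, Benjamini-Hochberg over all probe sets), 0 of 33 genes were called in AGA against vehicle, where 2 of 22215 probe sets were called (0.009%), and 0 of 33 in Aza against vehicle, where again 2 were called (0.009%). The mean of both treatments against vehicle called 0 of 33, beside 1 probe set (0.0045%). With the replicate number as a block and a prior variance that follows intensity (block and trend), limma called 156 probe sets in AGA (0.702%), 1 in Aza (0.0045%) and 0 for both treatments (0%), and still 0 of the 33 genes in each. Without the arrays numbered 4 the count of the 33 was 0 in each comparison as well. These comparisons share the vehicle arrays, so their values are not independent of each other. In bulk RNA of this kind, fewer cells of a type and less RNA per cell cannot be told apart.

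At an unadjusted p under 0.05, limma gave 2 of 33 genes in AGA (4.73% of all probe sets) and 1 of 33 in Aza (3.27% of all probe sets). With the replicate block these counts were 2 and 1 (9.52% and 5.39% of all probe sets). The mean of both treatments gave 2 of 33 (3.47% of all probe sets), or 3 with the block (6.68%). As shares of the 33, counts of 1, 2 and 3 genes are 3.03%, 6.06% and 9.09%. The lowest adjusted p of any of them was 0.84 in AGA, for TJP3, and 1 in Aza; with block and trend they were 0.147, again for TJP3, and 0.716, for LIN7B.

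For the well-expressed genes the data also bound the size of a difference, as read by the brightest probe set. Their median difference was -0.06 in AGA (5 higher and 8 lower) and -0.04 in Aza (6 higher and 7 lower), beside 0.01 and 0.00 for 6634 well-expressed genes of the array. The 95% interval of the difference lay within 1 log2 unit on either side of 0 for 11 of 13 genes in AGA and 12 of 13 in Aza, and for 13 of 13 in both with the replicate block. On the deposited scale, without normalization, the median of all probe sets was itself -0.24 in AGA, and 1 of the 13 genes was higher and 12 lower there; relative to the median of well-expressed genes 5 of 13 lay above on either scale. Of the 11 dim genes 3 had an interval within 1 log2 unit of 0 in AGA and 3 in Aza. Of the 9 genes near the floor 0 had one in either. For these dim and near-floor genes the intervals leave room for larger differences.

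**Figure D2:**
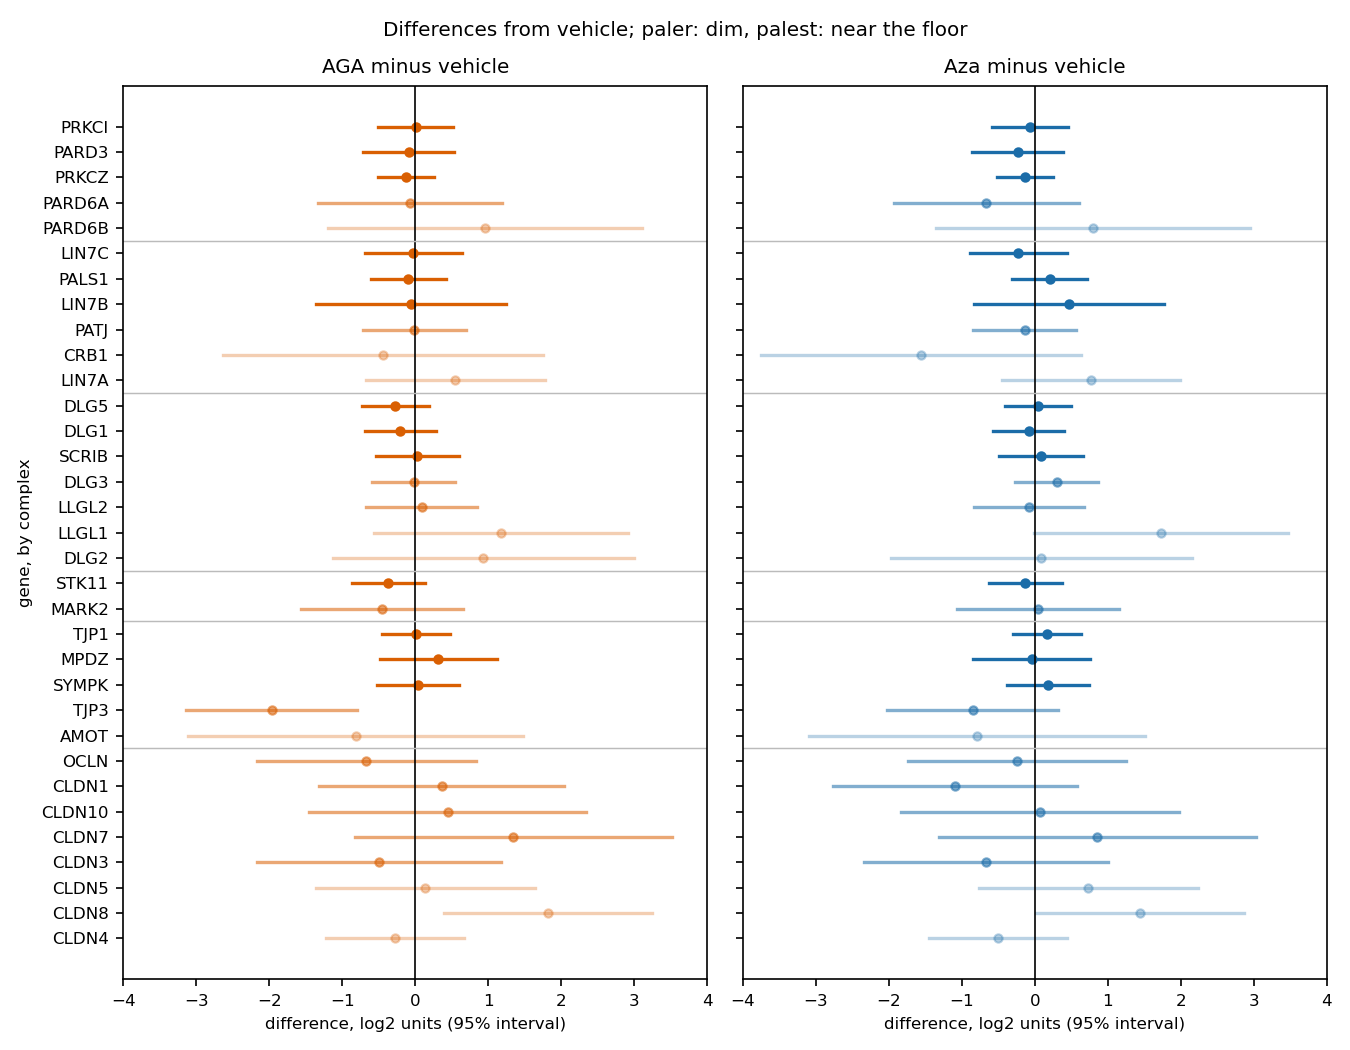
Difference from vehicle (horizontal axis, log2 units; point with its 95% interval from limma over 12 arrays) for the 33 genes, in AGA on the left and in Aza on the right, grouped by complex. Full colour marks well-expressed genes, paler colour dim ones and the palest those near the floor. The intervals of TJP3 and CLDN8 in AGA and of CLDN8 in Aza do not cross 0, and 0 of the 33 genes passed after adjustment.

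In the Par complex 3 genes were well expressed. PARD3, the scaffold that gathers the complex at the junction, read 8.39, 8.22, 7.58 and 7.46 in vehicle replicates 1 to 4, 8.29, 7.92, 7.40 and 7.68 in AGA, and 8.04, 7.90, 7.26 and 7.52 in Aza. The groups overlapped, replicates 1 and 2 were high in all 3 of them, and the Aza value was below its same-number vehicle value in 3 of 4 pairs. The difference was -0.09 ± 0.28 in AGA and -0.23 ± 0.28 in Aza (SE, n = 4, limma adjusted p of 1 in both). PRKCI, the atypical protein kinase C iota that phosphorylates basolateral proteins out of the apical side, read 9.41, 9.47, 9.19 and 8.78 in vehicle, 9.53, 9.38, 9.23 and 8.74 in AGA, and 9.29, 9.38, 9.19 and 8.73 in Aza. Its replicate 4 value was the lowest of each group and the groups overlapped otherwise. The difference was 0.01 ± 0.23 in AGA and -0.07 ± 0.23 in Aza (SE, n = 4, limma adjusted p of 1 in both), lower in 4 of 4 Aza pairs by 0.00 to 0.13.

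PRKCZ, the other atypical isoform, was well expressed too, from 7.12 to 7.75 over the 12 arrays, and differed by -0.13 in AGA and -0.14 in Aza. The probe sets of the adaptors that link the kinase to CDC42 lay below the median of all probe sets. PARD6A was dim, from 1.73 to 4.51, with differences of -0.08 and -0.66. PARD6B was near the floor and at 0 on 2 vehicle arrays and 1 AGA array, with differences of 0.96 and 0.80 that had 95% intervals from -1.19 to 3.11 and from -1.35 to 2.95. A second PARD6B probe set, also near the floor, went the other way on average, by -0.22 in AGA and -1.07 in Aza.

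Among the Crumbs genes, PALS1, the scaffold that joins Crumbs to PATJ and LIN7, read 6.21, 6.48, 6.37 and 6.69 in vehicle, 6.35, 6.28, 5.94 and 6.80 in AGA, and 6.64, 6.40, 6.38 and 7.16 in Aza. Replicate 4 was the highest of each group and the groups overlapped. The difference was -0.10 ± 0.23 in AGA and 0.21 ± 0.23 in Aza (SE, n = 4, limma adjusted p of 1 in both). LIN7B, a small adaptor of the same complex, read 5.37, 5.87, 6.18 and 7.77 in vehicle, 5.87, 5.69, 6.03 and 7.36 in AGA, and 6.71, 6.14, 6.23 and 8.01 in Aza. Its replicate 4 values exceeded all the others in every group, and the Aza value was above vehicle in 4 of 4 pairs, by 0.05 to 1.34. The mean difference in Aza was 0.48 ± 0.59 (SE, n = 4, limma adjusted p = 1; 0.716 with block and trend), against -0.06 in AGA.

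LIN7C ran from 7.19 to 8.54 and differed by -0.03 and -0.23. PATJ, a scaffold of many PDZ domains, ran from 3.99 to 5.34 and differed by -0.02 in AGA and -0.14 in Aza. The apical transmembrane gene CRB1 and the adaptor LIN7A were near the floor. The other Crumbs genes, CRB2 and CRB3, were not among the genes measured, and CRB1 does not stand for them. CRB1, whose printed window is the poorest in CG, read 0.52, 4.34, 0.68 and 3.72 in vehicle and 0, 1.12, 1.91 and 0 in Aza. These groups overlapped, and the difference of -1.56 had a 95% interval from -3.76 to 0.64. LIN7A differed by 0.55 in AGA and 0.78 in Aza, with 3 of 4 pairs higher in each.

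In the Scribble module 3 of 7 genes were well expressed. SCRIB, its large scaffold, read 7.97, 7.96, 8.44 and 7.53 in vehicle, 8.21, 8.01, 8.24 and 7.54 in AGA, and 8.18, 8.20, 8.37 and 7.51 in Aza. Replicate 4 was lowest in each group and replicate 3 highest, with the 3 groups overlapping. The difference was 0.02 ± 0.26 in AGA and 0.09 ± 0.26 in Aza (SE, n = 4, limma adjusted p of 1 in both). DLG1, a membrane-associated guanylate kinase that works with SCRIB, read 8.53, 8.78, 8.52 and 9.02 in vehicle, 8.44, 8.12, 8.50 and 8.95 in AGA, and 8.53, 9.04, 8.60 and 8.35 in Aza. By its brightest probe set it was lower in 4 of 4 AGA pairs, by 0.02 to 0.66, and mixed in Aza, with overlapping groups. The difference was -0.21 ± 0.22 in AGA and -0.08 ± 0.22 in Aza (SE, n = 4, limma adjusted p of 1 in both).

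DLG5, a related scaffold, read 10.86, 11.03, 11.06 and 11.39 in vehicle, 11, 10.61, 10.44 and 11.21 in AGA, and 11.07, 11.09, 10.94 and 11.41 in Aza. AGA replicates 2 and 3 were the lowest of the 12 arrays, and AGA 1 and 4 lay among the vehicle values. The difference was -0.27 ± 0.21 in AGA and 0.04 ± 0.21 in Aza (SE, n = 4, limma adjusted p of 1 in both; 0.193 in AGA with block and trend). DLG5 and LIN7B, like CRB1 and STK11, were singled out after their values were seen. DLG3 was dim and differed by -0.02 and 0.30, DLG2 was near the floor and differed by 0.93 and 0.09, and LLGL2, a partner of SCRIB that atypical protein kinase C removes from the apical side, was dim and differed by 0.08 and -0.08.

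LLGL1, the other LGL gene, was near the floor and is given as a value only. It read 1.97, 1.05, 0.70 and 0.85 in vehicle, 1.24, 4.12, 0.76 and 3.15 in AGA, and 2.83, 3.66, 1.13 and 3.86 in Aza. Aza was above vehicle in 4 of 4 pairs, and the groups overlapped through Aza replicate 3. The Aza difference of 1.73 had an unadjusted limma p of 0.0515, or 0.0264 with the replicate block, and adjusted p of 1 and 0.912. A second LLGL1 probe set, also near the floor, read 1.98, 1.17, 1.23 and 0.15 in vehicle and 3.35, 4.25, 1.07 and 1.21 in Aza, with a difference of 1.34. The LLGL1 window printed above was the richest in CG of the 26 genes with one. Those genes were split at the array's median of 26 CG. The 16 at or above it had a median Aza difference of 0.06 (from -1.09 to 1.73). The other 10 had a median of -0.37 (from -1.56 to 0.78). Among these 10, AMOT, CLDN4, CRB1, DLG2 and LIN7A were near the floor, so their median depends on such values. This is a description with no test, and no matching value is given for all genes of the array. Without one, these medians cannot show whether the Aza difference goes with the CG count, which was not tested. The ends of both ranges are set by genes near the floor (LLGL1, CRB1 and LIN7A) and by the dim CLDN1.

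The polarity kinases were STK11 and MARK2. STK11 (LKB1), which switches on MARK kinases, was well expressed and read 5.54, 5.76, 5.83 and 5.72 in vehicle against 5.26, 5.06, 5.36 and 5.69 in AGA. Each AGA value was below its vehicle partner, and the groups overlapped through replicate 4. The difference was -0.37 ± 0.23 in AGA (SE, n = 4, limma adjusted p = 1) and -0.13 in Aza. MARK2, which keeps PARD3 off the basolateral membrane, was dim, ran from 1.51 to 4.46, and differed by -0.46 and 0.05; AGA replicate 4 was its lowest array.

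Of the plaque genes, TJP1 (ZO-1), the scaffold that binds claudins and actin, read 9.05, 8.82, 8.94 and 9.18 in vehicle, 9.24, 8.60, 9.07 and 9.11 in AGA, and 9.57, 8.73, 9.28 and 9.07 in Aza. Replicate 2 was the lowest of each group and the groups overlapped. The difference was 0.01 ± 0.21 in AGA, with a 95% interval from -0.45 to 0.47, and 0.17 ± 0.21 in Aza, from -0.30 to 0.63 (SE, n = 4, limma adjusted p of 1 in both). SYMPK (symplekin), a junction protein that also serves messenger RNA processing, differed by 0.04 and 0.18. MPDZ, a multi-PDZ scaffold resembling PATJ, differed by 0.31 and -0.04, and its second probe set, also well expressed, by -0.23 and -0.18. AMOT (angiomotin), which binds PATJ, was near the floor and differed by -0.82 and -0.79, each with 2 of 4 pairs lower.

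TJP3 (ZO-3), a relative of ZO-1 found in epithelia, was the only one of the 33 genes for which a treated group did not overlap vehicle, by brightest probe sets, and it was singled out after its values were seen. Its dim brightest probe set read 4.10, 4.02, 4.29 and 4.41 in vehicle, 0.60, 2.16, 2.35 and 3.85 in AGA, and 3.71, 3.01, 3.11 and 3.60 in Aza. Every AGA and every Aza value lay below the lowest vehicle value; such separation was seen for 1 of 33 genes in each comparison, beside 2.69% of all genes in AGA and 1.67% in Aza. The difference was -1.97 ± 0.53 in AGA and -0.85 ± 0.53 in Aza (SE, n = 4, limma adjusted p of 0.84 and 1). AGA replicates 1 and 2 read below 2.31, the limit for near the floor, so the AGA size rests in part on values near it. With the replicate block the adjusted p in AGA was 0.426, with block and trend 0.147, and without the arrays numbered 4 the difference was -2.45 (limma adjusted p = 0.402).

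The second TJP3 probe set went the other way. Near the floor, it read 0.68, 0.00, 0.15 and 0.70 in vehicle, 1.16, 0.95, 3.01 and 1.67 in AGA, and 1.63, 1.62, 0.05 and 1.47 in Aza. All AGA values lay above all vehicle values, by 1.32 on average, and the mean Aza difference was 0.81. Averaged over both probe sets, TJP3 differed by -0.33 in AGA and -0.02 in Aza, so the size above belongs to 1 probe set. Which of them follows the TJP3 transcripts was not tested.

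Probe sets of 1 gene lay on both sides of 0 in 8 of the 16 genes with several in AGA and in 8 of 16 in Aza. In PARD3, as in TJP3, 1 probe set was higher and another lower in 4 of 4 pairs of 1 comparison (Aza for PARD3, AGA for TJP3), and all 4 of its probe sets were well expressed. The PARD3 probe set described above and 2 more were below vehicle on average: -0.09, -0.11 and -0.31 in AGA and -0.23, -0.25 and -0.36 in Aza. The one at -0.31 and -0.36 was lower in 4 of 4 pairs of both comparisons. Its unadjusted limma p with the replicate block was 0.0674 in AGA and 0.0389 in Aza, and its adjusted p 0.551 and 0.912. The fourth read 5.43, 6.02, 5.29 and 5.69 in vehicle, 6.33, 5.93, 5.88 and 6.30 in AGA, and 5.93, 6.37, 5.86 and 6.01 in Aza. It was higher in 3 of 4 AGA pairs (mean 0.50) and in 4 of 4 Aza pairs (mean 0.44). PARD3 has many splice forms, as background; which transcripts each probe set follows was not tested.

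**Figure D3:**
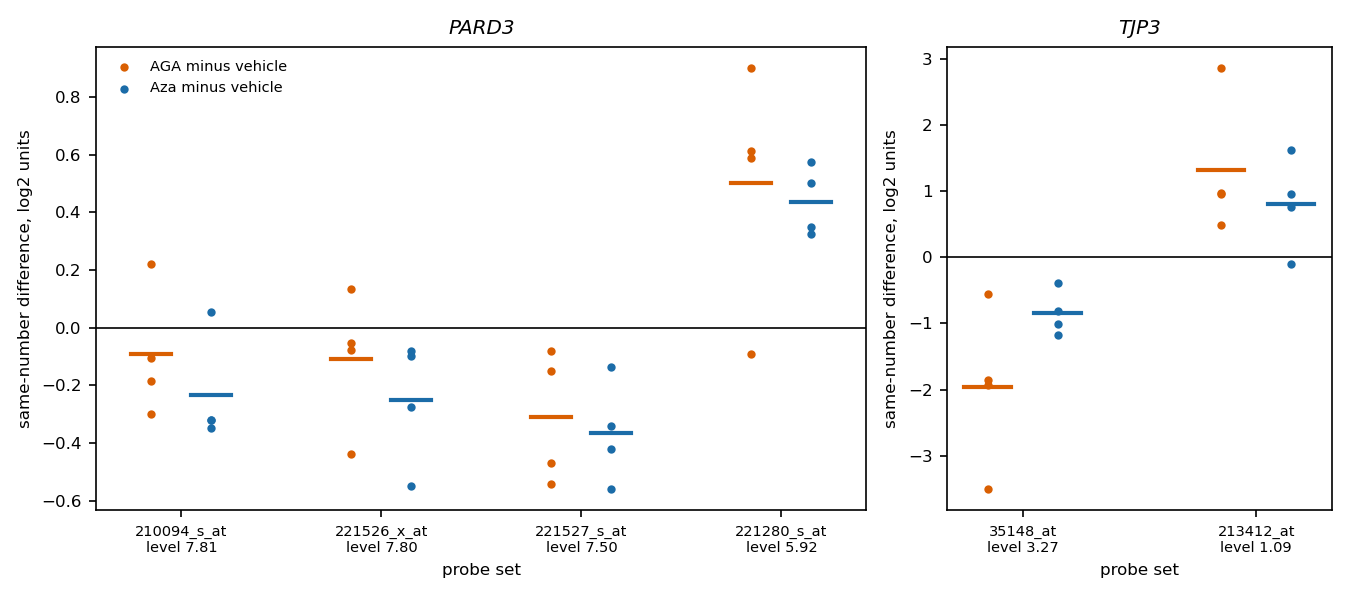
Same-number differences from vehicle (vertical axis, log2 units) for each probe set of PARD3 (left) and TJP3 (right), with points for the 4 pairs and a bar for their mean; orange is AGA and blue Aza, and the mean level of each probe set stands under its name. In PARD3 3 probe sets have means below 0 and 1 has means above it; in TJP3 the brighter probe set lies below 0 and the dimmer one has means above 0.

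The 8 measured transmembrane genes of the list were all dim or near the floor, and their spread was wide. In the further list counted below, JAM3 (6.99), CLDN15 (5.87) and LSR (4.88) were well expressed, and JAM2, CXADR and the other claudins were not. OCLN (occludin) read 4.46, 4.83, 3.69 and 5.65 in vehicle, 2.86, 4.78, 2.67 and 5.62 in AGA, and 4.18, 4.05, 4.00 and 5.43 in Aza. AGA was lower in 4 of 4 pairs, clearly in replicates 1 and 3 and by 0.06 and 0.03 in the others, and the groups overlapped. The difference was -0.67 ± 0.68 in AGA and -0.24 ± 0.68 in Aza (SE, n = 4, limma adjusted p of 1 in both). The AGA difference was -0.301 without AGA replicate 1, -0.238 without AGA replicate 3, -0.343 without vehicle replicate 4 and -0.284 with a constant of 16 added before the logarithm. CLDN1, a sealing claudin, read 3.61, 4.57, 3.42 and 3.23 in vehicle, 3.19, 4.25, 4.16 and 4.67 in AGA, and 2.24, 4.36, 0.23 and 3.62 in Aza. Aza replicates 1 and 3 were its lowest arrays. The difference was 0.36 ± 0.76 in AGA and -1.09 ± 0.76 in Aza (SE, n = 4, limma adjusted p of 1 in both).

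CLDN7 read 3.50, 3.73, 0.66 and 1.23 in vehicle, 2.83, 4.34, 4.23 and 3.10 in AGA, and 4.13, 4.29, 0.21 and 3.93 in Aza. Its vehicle arrays were split, with replicates 1 and 2 high and 3 and 4 low, and both drug groups overlapped them. The difference was 1.34 ± 0.99 in AGA and 0.86 ± 0.99 in Aza (SE, n = 4, limma adjusted p of 1 in both). CLDN4, which regulates paracellular ion flow, was near the floor on every array, at 0.96, 0.21, 0.07 and 1.84 in vehicle, 0, 0.90, 1.07 and 0 in AGA, and 0, 0.01, 0.05 and 1.00 in Aza. Aza was lower in 4 of 4 pairs, by 0.02 to 0.96, at levels where the floor sets the size. The difference was -0.28 ± 0.43 in AGA and -0.51 ± 0.43 in Aza (SE, n = 4, limma adjusted p of 1 in both).

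CLDN8, a claudin of tight, low-conductance epithelia, was near the floor and is given as a value only. It read 0, 0.06, 2.23 and 0 in vehicle, 1.10, 2.06, 3.22 and 3.22 in AGA, and 2.15, 3.04, 1.65 and 1.20 in Aza. AGA was higher in 4 of 4 pairs and Aza in 3 of 4, and vehicle replicate 3 lay among the treated values of both. The differences of 1.82 and 1.44 had unadjusted limma p of 0.0169 and 0.0485, or 0.0251 and 0.061 with the replicate block, and adjusted p of 1 in both without it. With a constant of 16 added before the logarithm, which damps values near the floor, they were 0.31 and 0.21. CLDN3 (dim) differed by -0.49 and -0.67, lower in 4 of 4 Aza pairs; CLDN5, best known from endothelium, by 0.14 and 0.73; and CLDN10 by 0.44 and 0.07.

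Counted by sign over same-number pairs, 1 of 33 genes was higher in 4 of 4 AGA pairs (CLDN8; 10.4% of all genes) and 4 were lower (DLG1, STK11, TJP3 and OCLN; 9.14% of all genes). In Aza 2 were higher (LIN7B and LLGL1; 8.24% of all genes) and 4 lower (PRKCI, TJP3, CLDN3 and CLDN4; 7.29% of all genes). TJP3 was in both lower sets through the same vehicle arrays.

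Aza and AGA were also compared with each other, in the same fit over all 12 arrays. Again 0 of 33 genes passed (limma), beside 3 probe sets (0.0135%), and 0 with block and trend, beside 189 (0.851%). At an unadjusted p under 0.05 there were 0 of 33 (4.76% of all probe sets), and 3 with the replicate block (9.13% of all probe sets): LIN7B, MPDZ and DLG5, named after their values were seen. LIN7B was higher in Aza in 4 of 4 pairs (0.85, 0.46, 0.19 and 0.65), DLG5 likewise (0.07, 0.48, 0.50 and 0.21), and MPDZ was lower in 4 of 4 (-0.38, -0.30, -0.01 and -0.73). The second MPDZ probe set differed by 0.05, higher in 2 of 4 pairs. The second DLG5 probe set differed by 0.66, higher in 3 of 4 pairs (limma block p of 0.0429, adjusted 0.538). The block p of LIN7B, DLG5 and MPDZ were 0.0391, 0.0498 and 0.0414, and their adjusted p 0.533, 0.547 and 0.537 (limma). With block and trend the adjusted limma p were 0.234, 0.129 and 0.445. The groups of 0 of 33 genes did not overlap here, beside 2.54% of all genes. PALS1 was also higher in Aza in 4 of 4 pairs, for a total of 3 genes (8.66% of all genes), and PARD3 joined MPDZ among 2 lower ones (9.31% of all genes). Over the 13 well-expressed genes the median difference, Aza minus AGA, was 0.13, with 8 higher and 5 lower, beside -0.01 for well-expressed genes of the array; with the mean of all probe sets per gene it was 0.06, and 0.02 without either AGA replicate 2 or Aza replicate 2.

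For the well-expressed genes, differences between replicate numbers were larger than differences between drugs. The sum of squares over 12 arrays was divided between treatments, replicate numbers and the rest: the share of the replicate number exceeded that of treatment in 13 of 13 well-expressed genes, beside 85.6% of 6634 well-expressed genes of the array. The medians were 66.2% for replicate number and 9.38% for treatment, beside 60.1% and 11%. Number has 4 levels and treatment 3, so the former takes a somewhat larger share of pure noise. The replicate share was 95.8% for PRKCI, 92.7% for SCRIB, 86.7% for PARD3 and 84.0% for LIN7B, and lowest for DLG1 at 15.7%.

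**Figure D4:**
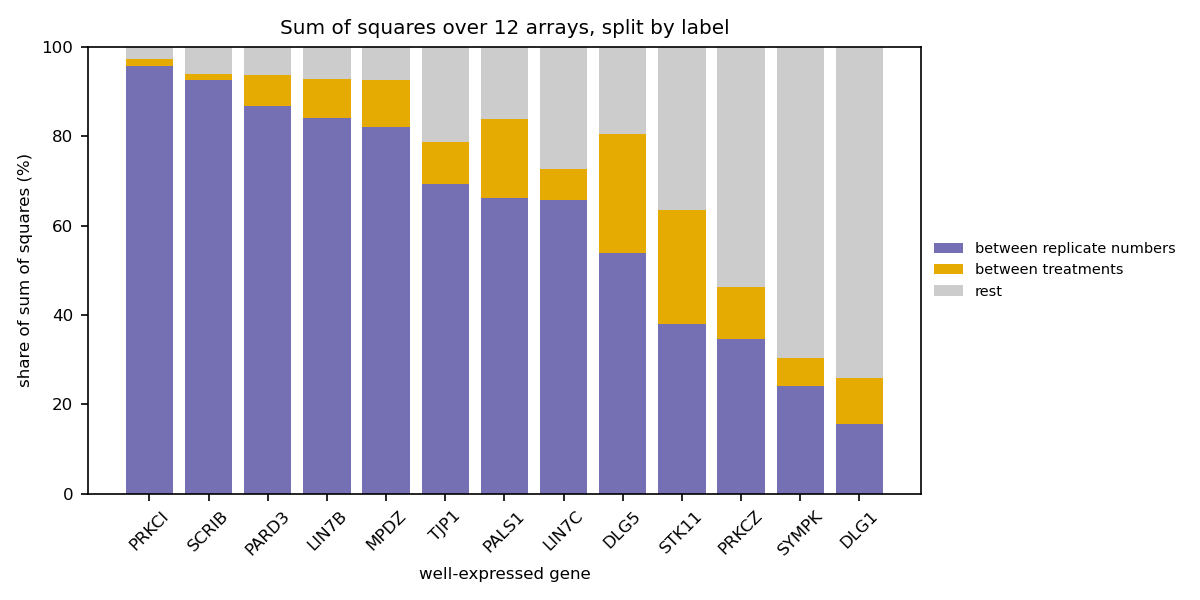
Share of the sum of squares over 12 arrays (vertical axis, percent) that lies between replicate numbers (purple), between treatments (yellow) and in the rest (grey) for the 13 well-expressed genes. The purple part is larger than the yellow part in all 13, from 95.8% in PRKCI to 15.7% in DLG1.

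The arrays numbered 4 lay wholly outside the other 9 in 5 of the 13 genes (38.5%, beside 28.2% of all well-expressed genes). Averaged over the 3 groups, PRKCI was at 8.75 in replicate 4 and 9.34 in replicates 1 to 3, and SCRIB at 7.53 and 8.18. PALS1 (6.88 and 6.34), LIN7B (7.71 and 6.01) and DLG5 (11.34 and 10.90) were higher in replicate 4. MPDZ was lower in it on average (5.22 and 6.13), although AGA replicate 4 reached into the range of the rest. The labels do not say what the replicates numbered alike shared.

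**Figure D5:**
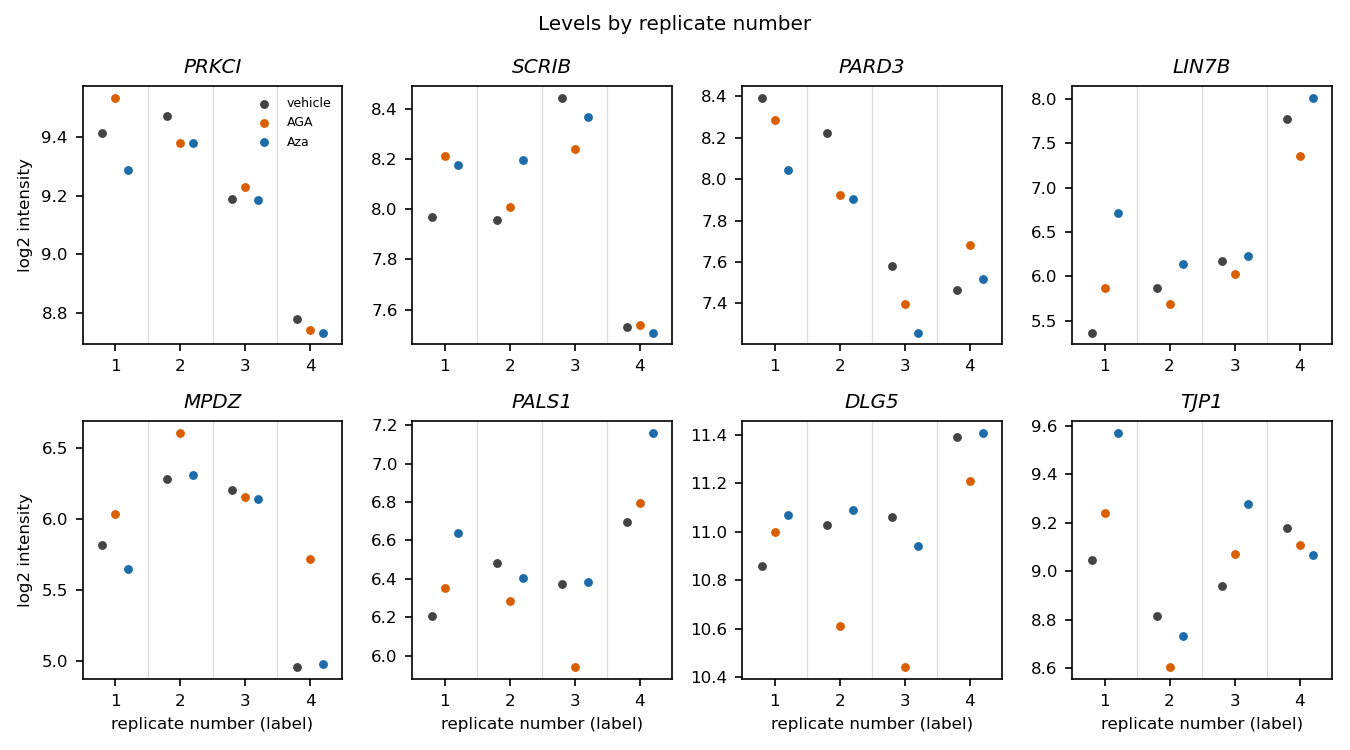
Levels of 8 well-expressed genes (vertical axes, log2 intensity, each with its own range not starting at 0) by replicate number (horizontal axis); grey is vehicle, orange AGA and blue Aza. In PRKCI and SCRIB the 3 replicate 4 arrays are the lowest of the 12, and in LIN7B they are the highest.

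Other genes of the pathways were counted from a list of 60, of which 36 were measured. Among them 0 were called in any of these comparisons (limma, with or without the block and trend). In AGA 19 were higher and 17 lower (median 0.02), and in Aza 15 and 21 (median -0.03). An unadjusted p under 0.05 was reached by 2 in AGA and 2 in Aza, or 5 and 3 with the replicate block. As shares these are 5.56% in both (4.63% and 2.95% of all genes), or 13.9% and 8.33% with the block (9.9% and 5.22% of all genes). Of the 36, 4 were higher in 4 of 4 AGA pairs (11.1%, beside 10.4% of all genes). In AGA 5 were lower in 4 of 4 pairs (13.9%, beside 9.14%). In Aza 4 were higher (11.1%, beside 8.24%) and 3 lower (8.33%, beside 7.29%). CDC42, CLDN15 and YBX3 were singled out after their values were seen. CDC42, the GTPase that activates the Par complex, was higher in AGA in 4 of 4 pairs by 0.33 on average (limma adjusted p = 1; 0.0765 with block and trend). CLDN15, a pore-forming claudin and the only well-expressed claudin of either list, was lower in 4 of 4 AGA pairs by 0.55 on average (limma adjusted p = 1; 0.172 with block and trend). YBX3 (ZONAB), a transcription factor held at the junction by ZO-1, differed by -0.19 in AGA and -0.15 in Aza, lower in 4 of 4 pairs of both.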

How the data were processed

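The deposited values are linear intensities per probe set, made by the authors with GCOS, the Affymetrix operating software, per the submitters' processing notes; version, algorithm and scaling are not given in the sources used here. Medians of the arrays ran from 23.3 to 35.9, and between 5.26% and 7.94% of the values on an array were under 1. Precision is limited by the number of arrays.

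Values below 1 were set to 1, log2 was taken and arrays were quantile normalized (limma 3.58.1, R 4.3.3). The 62 control probe sets of 22277 were left out. Of the rest, 19064 carried 1 gene symbol, 1043 several and 2108 none, and 19052 matched the GRCh38.p14 gene table. Each probe set was fitted over all 12 arrays (lmFit, eBayes, two-sided), adjusted over all probe sets; the script was tested on simulated data.

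Same-number arrays of different groups deviated together over probe sets above the median level (12 of 12 correlations over 0.1, from 0.368 to 0.781; at most 0.181 for different numbers) and less clearly over all probe sets (0.0589 to 0.261, 6 of 12 over 0.1). The numbers come from the labels and were treated as pairing. Alternatives were the replicate block, block with trend, other scalings, filters and left-out arrays; the block with trend without the arrays numbered 4 was added after seeing the data.

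Members and lists were chosen with earlier results of these data known. Full values go to 10 genes fixed by role, to any called gene and to near-floor genes at p under 0.05. They also go to well-expressed genes at a block p under 0.05, with none by brightest probe set in AGA or Aza against vehicle.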

Additional observations from a re-analysis of the deposited data

Results flagged for a closer look

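In 8 of 99 groups of 4 arrays (33 genes in 3 groups, 8.08%), the highest or lowest array lay far from the other 3 by Dixon's criterion. For normally distributed values, chance meets it in about 1 in 20 groups. Values near the floor crowd at 0 instead, so that rate does not hold for them. Of the 8, only LIN7C was well expressed: its AGA replicate 2 read 8.35, and the other AGA arrays 7.96 to 7.98. OCLN read 5.43 in Aza replicate 4 against 4.00 to 4.18 in the others. CLDN7 read 0.212 in Aza replicate 3 against 3.93 to 4.28. CLDN10 read 0.151 in vehicle replicate 1 against 3.69 to 4.04, and 1.72 in AGA replicate 2 against 3.82 to 4.12. Near the floor, PARD6B read 2.83 in vehicle replicate 3 against at most 0.48, CLDN8 read 2.23 in vehicle replicate 3 against at most 0.06, and CLDN4 read 0.997 in Aza replicate 4 against at most 0.05. Of the 8, 2 were arrays numbered 4.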

How the results depend on the processing

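The count of called members was 0 of 33 in each of the 4 comparisons under every alternative run for it: other scalings, the constant of 16, the replicate block with and without trend, only the compared groups (not run for both treatments together), without dim probe sets, without each array in turn and without replicate 4 of all groups. Counts over all probe sets moved. In AGA (2 called) they were 0 with the constant of 16, 5 with only the compared groups, 156 with block and trend, 0 without dim probe sets, 7 without replicate 4 of all groups and 44 without it in the block with trend; leaving out single arrays gave 1 to 5. In Aza (2 called) they were 0 with the constant of 16, 0 with median-centred arrays, 4 with only the compared groups, 0 with the replicate block, 1 with block and trend, 0 without dim probe sets and 6 without replicate 4; single arrays gave 0 to 7. In Aza against AGA (3 called) they were 0 with the constant of 16, 189 with block and trend, 0 without dim probe sets, 8 without replicate 4 and 84 without it in the block with trend; single arrays gave 2 to 7. For both treatments (1 called) they were 0 on the deposited scale, 0 with the constant of 16, 0 with the replicate block with or without trend, 0 without dim probe sets, 2 without replicate 4 and 0 without it in the block with trend; single arrays gave 0 to 2. The replicate block changed no call of a member.

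The median difference of the well-expressed members was -0.349 in AGA, -0.113 in Aza and 0.305 in Aza against AGA on the deposited scale, where the median of all probe sets was -0.244, -0.06 and 0.182. It was 0.061 in Aza against AGA with the mean of all probe sets per gene. Without single arrays it ran from -0.111 to -0.012 in AGA, from -0.084 to 0.036 in Aza and from 0.017 to 0.141 in Aza against AGA. In Aza it was above 0 without Aza replicate 4 (0.00873), vehicle replicate 2 (0.0228) or vehicle replicate 3 (0.0361).

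Differences close to 0 changed sign, with the cause not tested. On the deposited scale PRKCI (-0.228), SCRIB (-0.230) and TJP1 (-0.233) were below 0 in AGA, close to the shift of all probe sets. Without replicate 4 of all groups, with or without the block and trend, CLDN4 was at 0.241 and LIN7B at 0.056 in AGA and DLG1 at 0.112 in Aza. Without single arrays the AGA differences ran from -0.247 to 0.066 for PARD3, -0.138 to 0.169 for PRKCI, -0.247 to 0.039 for PALS1, -0.124 to 0.180 for SCRIB, -0.067 to 0.145 for TJP1, -0.513 to 0.081 for CLDN4 and -0.437 to 0.430 for LIN7B. The Aza differences ran from -0.212 to 0.072 for PRKCI, -0.063 to 0.270 for SCRIB, -0.219 to 0.019 for DLG1, -0.583 to 0.086 for OCLN and -0.048 to 0.145 for DLG5. Signal near the floor limits the claudins, PARD6B, CRB1, LIN7A, LLGL1, DLG2 and AMOT, whose differences on the log2 scale move with the floor. The AGA difference of TJP3 rests in part on such values too.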

Other observations

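Several genes have further probe sets whose values are not given above, or are given only in part. DLG1 has 5, with AGA differences from -0.29 to 0.29 and Aza differences from -0.22 to 0.08. Beside the brightest, its well-expressed probe sets differed in AGA by 0.10 (higher in 3 of 4 pairs), -0.11 and -0.29. The AGA difference of 0.29 came from a DLG1 probe set near the floor. DLG3 has 4, from -1.08 to 0.48 in AGA and from -0.77 to 0.52 in Aza. The second TJP1 probe set, from 3.63 to 5.97 over the 12 arrays, differed by 0.24 in AGA and 0.48 in Aza, on the same side of 0 as the brighter one. Both DLG5 probe sets were lower in AGA on average (-0.27 and -0.48) and higher in Aza (0.04 and 0.18). The second CLDN3 probe set was listed at 0 on all 4 Aza arrays and read 0.33, 1.17, 0.16 and 0 in vehicle and 0.90, 2.01, 0.99 and 0 in AGA, all near the floor. None of these probe sets passed after adjustment (limma).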
